A study of Mus musculus with 6 samples.

Results

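The genes described here make the building blocks of nucleic acids and the polyamines. They are 35 genes chosen by name for their known roles in folate one-carbon metabolism, purine and pyrimidine synthesis, nucleotide salvage, the methionine cycle and polyamine synthesis. All 35 were found among the 21362 gene names of the deposited tables, and all 35 reached a mean of at least 1 CPM (counts-per-million, scaled with the TMM method), as did 11516 genes in all. Bulk RNA sequencing measured them in 6 mouse CD4+ T cell libraries. The series concerned regulatory T cells given sorafenib, an oral inhibitor of several kinases used against liver and kidney cancer, and cells that were not given it. The labels number the libraries and name the cell type for all of them, without a treatment, strain, age or culture time. No group was therefore formed, and no effect of the drug is given. The labels name no mouse or culture for a library, so the spread between libraries may be technical.

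Folate one-carbon metabolism moves single carbon units from serine onto folate, in the mitochondria and in the cytosol, and hands them on to purine and thymidylate synthesis and to the remaking of methionine. Purine rings are built stepwise on an activated ribose, PRPP, while the pyrimidine ring is made first and joined to PRPP afterwards. Resting T cells cover most of their needs by salvage, and activated T cells switch on the synthesis routes when they grow and divide. Polyamines are made from ornithine and from methyl-cycle intermediates, and they support translation, partly through a modification of the factor eIF5A.

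Total counts were from 32435799 to 36316162 per library, and the members held from 217 reads (Dhodh, library 1) to 13323 reads (Odc1, library 3). The 9 T cell markers looked at, among them Cd3e, Cd4 and Lck, were all expressed. They summed to 3314, 3222, 3134, 2698, 2721 and 2795 CPM in libraries 1 to 6, highest where the members described below were mostly low. Of the 9, 6 were highest in library 1 and Lck in library 2, while Cd3e and Cd4 were highest in library 6. Cd28 had the largest range of them, with 848, 786, 783, 524, 510 and 507 CPM. Cd4 stood at 436, 426, 412, 480, 475 and 482 CPM, the other way round. Mitochondrial genes took 2.02%, 1.90%, 1.98%, 2.45%, 2.37% and 2.41% of the reads, highest in libraries 4, 5 and 6. The 5 B cell markers summed to 4.86, 5.58, 5.48, 8.17, 7.79 and 7.70 CPM. The CD8 T cell markers Cd8a and Cd8b1 summed to 8.52 to 10.1 CPM, most of it from Cd8b1, and 6 myeloid markers to 9.89 to 13.0 CPM, most of it from Cd68. NK cell and erythroid markers reached at most 0.105 and 0.287 CPM. Each marker found in the table had reads in at least 1 library, but Lyz2 had 0 reads in library 1, Csf1r in library 2, and Ncr1 of NK cells in libraries 1, 3, 4 and 5. The 12 proliferation markers, such as Mki67 and Top2a, summed to between 475 (library 3) and 1173 CPM (library 6). Their level (each gene's log2 CPM is set against its median, and the median of those deviations is taken) was -0.57, -0.47, -0.66, 0.50, 0.52 and 0.68 in libraries 1 to 6. The part of the T cell, B cell and proliferation markers and of the mitochondrial reads in the results below was not tested. In bulk RNA, fewer cells of a type and less RNA per cell cannot be told apart.

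The 35 genes differed far more from each other than any of them did between libraries. On the FPKM scale, which divides reads by gene length, the median over libraries ran from 1.79 for Mtr, the methionine synthase gene, to 225 for Nme2, a nucleoside diphosphate kinase gene. Behind Nme2 came Aprt, which salvages adenine (114 FPKM), Odc1, which makes the first polyamine putrescine (110.2), and Impdh2, the first enzyme of the guanine branch (98.9). Nme2 lay above every other member in each library. Aprt and Odc1 overlapped in their values over libraries (107 to 120.0 and 102 to 129 FPKM), so their order was not settled, and Odc1 overlapped with Impdh2 (78.1 to 116 FPKM) too. At the lower end, Mtr lay below all others, and Dhodh and Shmt1 overlapped (2.85 to 5.16 and 2.39 to 6.02 FPKM). FPKM rests on the gene lengths that the authors used, which followed from the 2 tables and ran from 634 bases for Dctpp1 to 9769 bases for Mtr.

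**Figure D1:**
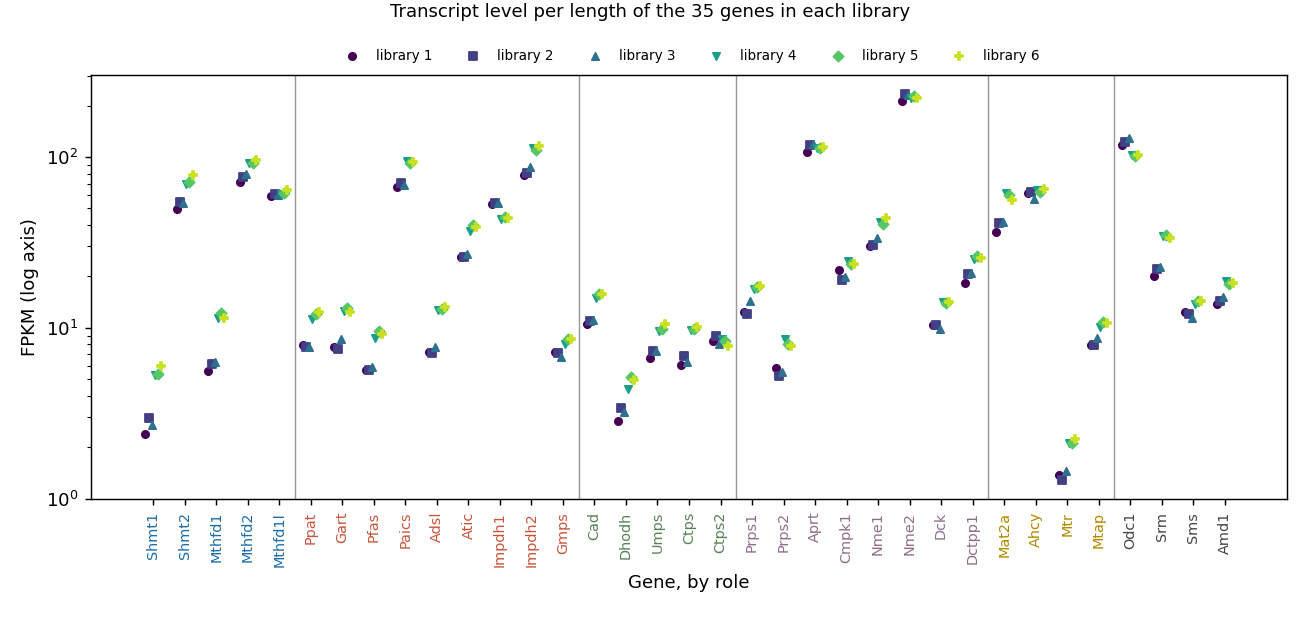
FPKM of each of the 35 genes in each of the 6 libraries, on a log axis, with genes ordered by role and 1 point per library. Points of 1 gene lie close together compared with the distance between genes, from about 1.79 FPKM for Mtr to 225 FPKM for Nme2.

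Between libraries, most members differed by moderate amounts. Dividing a gene's highest library by its lowest gives its fold range, which had a median of 1.36-fold over the members against 1.29-fold over all genes tested. A range of 2-fold or more was reached by 2 of 35 members, Shmt1 and Mthfd1, against 10.5% of all genes. All 35 also had a mean above 5 CPM, and of genes with at least that mean, 4.69% ranged 2-fold or more, so whether the members' share lies above or below that of all genes depends on the minimum. A range of 1.5-fold or more was reached by 12 of 35, or 34.3%, against 27.6% of all genes, and by 7 of 35 against 24.0% of all genes when library 1 was left out. At the minimum of 1 CPM, the members' share was thus above that of all genes with library 1 and below it without. With library 2, 3, 4, 5 or 6 left out instead, from 9 to 12 members passed the 1.5-fold line, against 24.8% to 25.7% of all genes. This comparison too depends on the minimum. Raising it to 5 CPM, with all 6 libraries kept, lowered the share of all genes past 1.5-fold to 17.3%. Leaving out library 1 was not tried at that higher minimum. The exact 95% intervals of the highest and the lowest library, which cover counting error only, stood apart for 35 of 35 members, against 85.0% of all genes. Around the 1.5-fold line, Ppat lay just over it at 1.51-fold and Umps just under it at 1.48-fold. Shmt1, Mthfd1, Gart, Pfas and Adsl ranged 1.5-fold or more in each of the 12 alternatives run for single genes.

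**Figure D2:**
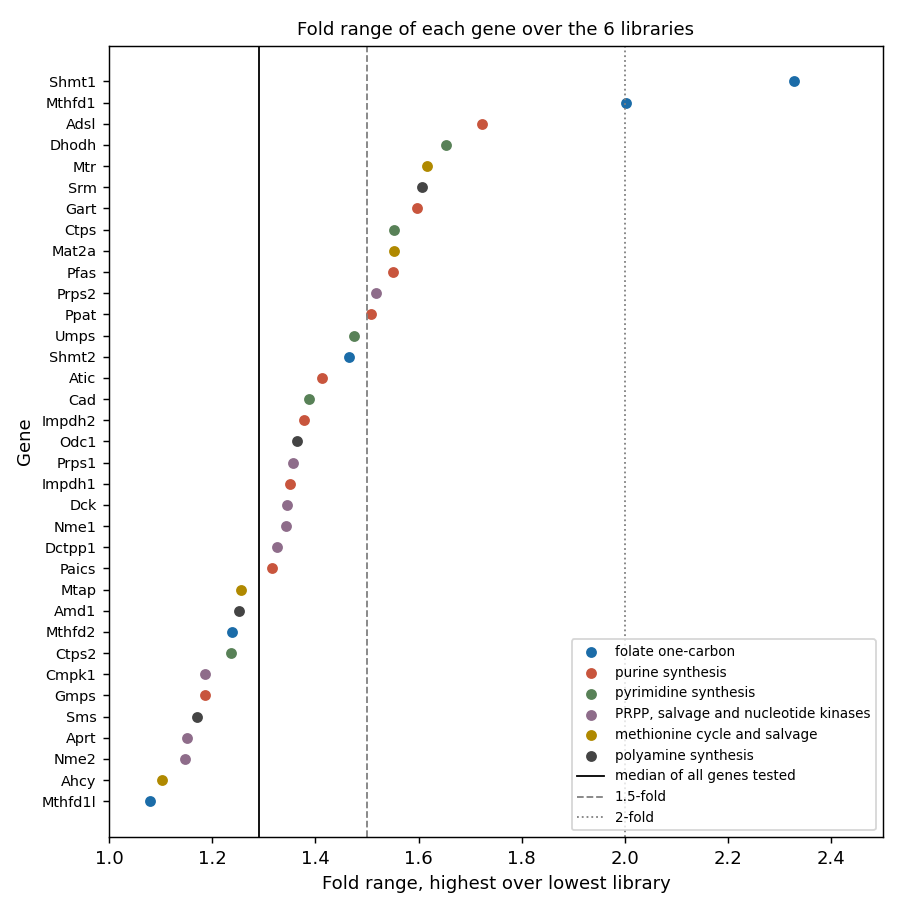
Fold range (highest over lowest library) of each of the 35 genes, coloured by role, with lines at the median of all genes tested (1.29-fold), at 1.5-fold and at 2-fold. Shmt1 at 2.33-fold and Mthfd1 at 2.001-fold lie farthest to the right, and Mthfd1l at 1.08-fold farthest to the left.

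Some libraries stood at the ends of these ranges more often than others. Library 6 was the highest library for 15 of 35 members, or 42.9%, against 21.2% of all genes tested, and library 1 was highest for 0 of 35, against 18.7% of all genes. Library 1 was the lowest for 16 of 35, or 45.7%, against 22.6% of all genes. The level of the 35 members, as a median deviation in log2 units, was -0.21, -0.17, -0.14, 0.13, 0.14 and 0.17 in libraries 1 to 6, a range of 0.38, while that of all genes tested had a range of 0.01. In plain reads the members together took 0.280%, 0.291%, 0.294%, 0.340%, 0.342% and 0.345% of libraries 1 to 6.

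**Figure D3:**
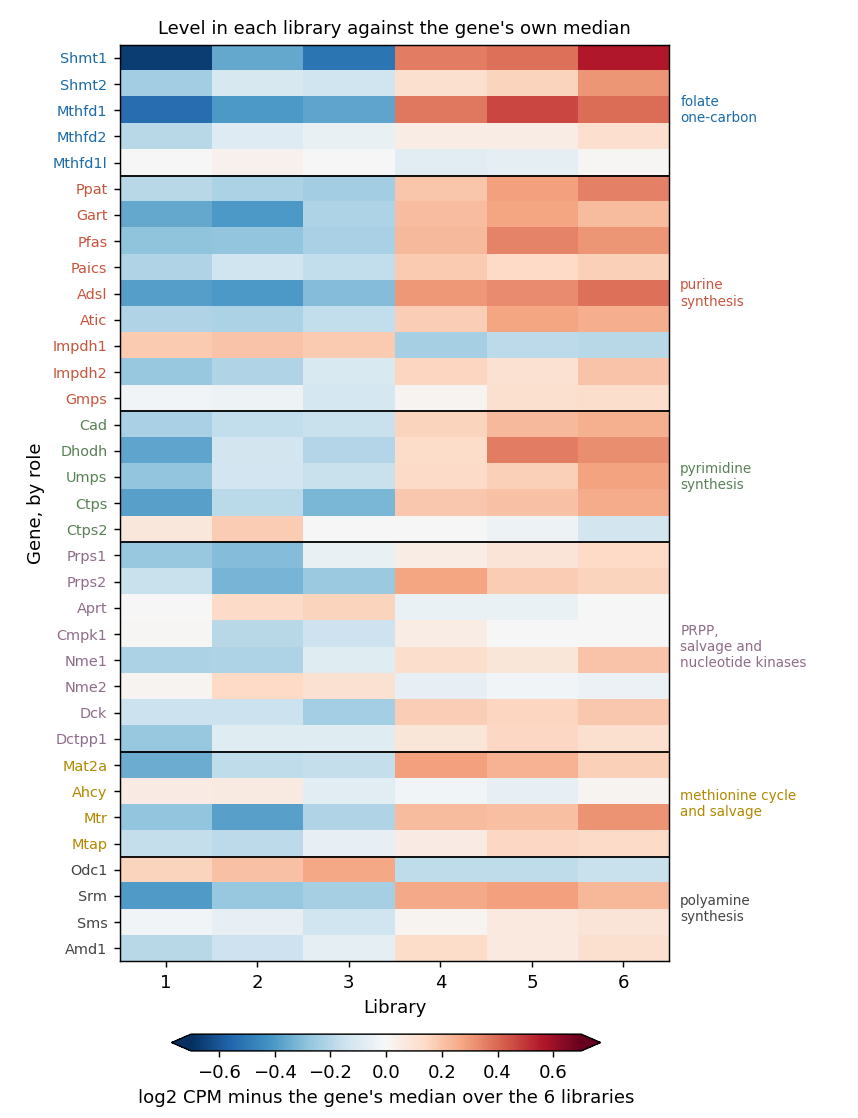
Deviation in log2 CPM of each gene in each library from the median of that gene, with rows ordered by role, red for above and blue for below the median. Most rows are blue in library 1 and red in library 6, and the rows of Impdh1, Odc1, Ctps2, Nme2 and, by a small margin, Aprt run the other way.

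The folate enzymes held both extremes of the 35 genes. Shmt1, the cytosolic serine hydroxymethyltransferase gene, stood at 7.63, 9.42, 8.49, 15.5, 15.8 and 17.8 CPM in libraries 1 to 6, the order used for all values that follow. That was 2.33-fold, and the 95% interval was 6.69 to 8.66 CPM for library 1 against 16.5 to 19.3 CPM for library 6. The 3 highest values were those of libraries 4, 5 and 6, and the smallest of them lay well above the largest of the others. With a gene's 6 values put in order, the widest gap set libraries 4, 5 and 6 above the rest for 16.1% of all genes tested. For 18.7% of all genes it set libraries 1, 2 and 3 above. Mthfd1, which encodes the cytosolic trifunctional enzyme of folate carbon, stood at 24.2, 26.5, 27.1, 45.2, 48.5 and 46.0 CPM, a range of 2.001-fold. Its range lay at the 2-fold line and was under it without library 1 (1.81-fold), 2 or 3 (1.99-fold each) or 5 (1.90-fold), and with DESeq2 size factors (1.96-fold).

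The mitochondrial enzymes were more abundant per length and ranged less. Shmt2, Mthfd2 and Mthfd1l had median levels of 62.1, 85.9 and 60.7 FPKM, against 4.12 and 8.85 FPKM for Shmt1 and Mthfd1. Shmt2, the mitochondrial counterpart of Shmt1, stood at 120.1, 132, 129, 153, 159 and 176 CPM, a range of 1.47-fold. Mthfd2, the mitochondrial dehydrogenase and cyclohydrolase gene that is strongly induced in activated T cells and tumours, stood at 177, 189.6, 195, 209, 209 and 219 CPM, or 1.24-fold. Both were lowest in library 1 and highest in library 6. Mthfd1l, which releases mitochondrial formate for use in the cytosol, stood at 277, 283, 277, 262, 266 and 279 CPM and had the smallest range of the 35 genes, 1.08-fold. Library 2 was its highest and library 4 its lowest, but with plain total counts or FPKM library 6 was the highest and library 1 the lowest.

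Purine synthesis was the largest role list, and 8 of its 9 genes were lowest in library 1, 2 or 3. Of all genes tested, 22.6%, 16.4% and 13.2% were lowest in libraries 1, 2 and 3. The first committed enzyme, the amidotransferase encoded by Ppat, stood at 33.0, 32.5, 32.0, 43.4, 46.2 and 48.3 CPM. Gart, which encodes a trifunctional enzyme of the next steps, stood at 39.6, 38.5, 43.7, 59.1, 61.5 and 59.2 CPM, and Pfas, the gene of the amidine-forming step, at 37.5, 37.7, 39.0, 53.4, 58.2 and 56.5 CPM. In each of these 3 genes libraries 4, 5 and 6 were above the rest. The widest gap lay there too, as for 16.1% of all genes tested. The ranges were 1.51-fold, 1.60-fold and 1.55-fold. Adsl, the adenylosuccinate lyase gene that acts both in ring building and in the adenine branch, had the largest range of the list, 1.72-fold, with 28.0, 27.7, 29.6, 45.2, 46.1 and 47.8 CPM. Its 95% intervals were 26.0 to 29.5 CPM for library 2 against 45.6 to 50.2 CPM for library 6.

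The abundant enzymes of the list ranged less. Paics, which carries out the steps just before Adsl, stood at 173, 183, 178, 228, 221 and 225 CPM, 1.31-fold. Atic, which closes the ring to inosine monophosphate, ranged 1.41-fold, from 70.7 (library 2) to 99.9 CPM (library 5). Per length, Paics had 81.4 FPKM and Atic 32.1 FPKM, while Ppat, Gart, Pfas and Adsl lay between 7.34 and 10.5 FPKM. Ppat and Paics are neighbours read from opposite strands, and 5.67% of the 50-base windows of the longest Ppat transcript also occur in Paics. The strand setting of the counting is not given in the sources used here, so reads from that overlap cannot be told apart.

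The guanine branch held a pair of genes that ran in opposite directions. Impdh2, the inosine monophosphate dehydrogenase gene of growing lymphocytes, stood at 145, 150.0, 161, 192, 186 and 199 CPM, lowest in library 1 and highest in library 6. Impdh1, its isozyme, stood at 159.7, 162, 159.8, 119.9, 124 and 123 CPM, lowest in library 4 and highest in library 2. The ranges were 1.38-fold for Impdh2 and 1.35-fold for Impdh1. Gmps, which makes guanosine monophosphate, ranged 1.19-fold, from 59.6 (library 3) to 70.7 CPM (library 6). Of the transcript windows of Impdh2, 73.9% also occur in its pseudogene, so its level is less certain than that of Impdh1, which shares no such window.

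The promoters of these genes were searched for the letters CACGTG, the E-box bound by MYC, a factor known to activate nucleotide synthesis genes. RefSeq windows of build GRCm38.p6, from 250 bases before to 50 bases after the start site, were at hand for 32 of the 35 genes, and a gene counted if any of its windows held the letters. The motif reads the same on both strands. It was found for 5 of 32 members, or 15.6%, against 9.97% of 15943 genes of the table. TGATGCAAT (an ATF4 site), GCCATCTTG (YY1) and CCGGAAGTG (ETS factors), searched on both strands, were found in 0 of the 32 and in 0.176%, 1.93% and 3.49% of all 15943. The 5 genes with CACGTG were Atic, Paics, Impdh2, Nme1 and Sms, with fold ranges of 1.41-fold, 1.31-fold, 1.38-fold, 1.34-fold and 1.17-fold. These stretches of 30 bases show the motif in capitals where it stands before each start site, 5′ to 3′ on the strand of the gene, with Nme1 given for both of its start sites.
Atic: gaggaggggcgggacctcggggtCACGTGg
Paics: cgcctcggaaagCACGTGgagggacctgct
Impdh2: gagctcgataagCACGTGgttacccagctc
Nme1 at the first start site: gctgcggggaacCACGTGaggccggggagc
Nme1 at the second start site: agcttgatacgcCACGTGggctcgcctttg
Sms: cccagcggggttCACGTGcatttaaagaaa
The stretches lie at chr1:71557126-71557155 (plus strand), chr5:76951087-76951116 (plus), chr9:108560314-108560343 (plus), chr11:93968273-93968302 (minus), chr11:93968037-93968066 (minus) and chrX:157492466-157492495 (minus) of GRCm38. In the GENCODE annotation of that build, those of Atic, Impdh2 and the first Nme1 start overlap an untranslated exon of the same gene, that of Paics overlaps an untranslated exon of Ppat on the other strand, that of the second Nme1 start lies within Nme1 outside its exons, and that of Sms lies in no gene. The authors' build was GRCm39 per the submitters' processing notes, so these positions belong to the reference and not to the deposited counts. Myc itself stood at 128, 127, 126, 137, 147 and 156 CPM, a range of 1.24-fold, and its part in these values was not tested.

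In pyrimidine synthesis, 4 of the 5 genes were lowest in library 1, against 22.6% of all genes tested. Cad, which encodes the enzyme of the first 3 steps and was the most abundant of the list per length, stood at 80.2, 83.3, 84.3, 104, 109.7 and 111 CPM, 1.39-fold. Dhodh, the mitochondrial dehydrogenase gene that links the route to the respiratory chain, stood at 6.98, 8.27, 7.83, 9.86, 11.6 and 11.3 CPM and had the largest range of the list, 1.65-fold, or 1.47-fold without library 1. Its reads were the fewest of the 35 genes, and the 95% intervals were 6.09 to 7.98 CPM for library 1 against 10.5 to 12.8 CPM for library 5. Umps, which attaches the ring to PRPP and forms uridine monophosphate, ranged 1.48-fold, from 24.1 (library 1) to 35.5 CPM (library 6).

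The last step, from UTP to CTP, has a pair of isozymes. Ctps, which encodes CTP synthase 1, the form that dividing lymphocytes depend on, stood at 19.4, 22.1, 20.3, 28.8, 29.1 and 30.2 CPM, 1.55-fold. Its range was 1.48-fold without library 1 and 1.496-fold without library 6. Ctps2 stood at 54.9, 58.8, 52.0, 51.8, 50.6 and 47.5 CPM, 1.24-fold, highest in library 2 and lowest in library 6, the library in which Ctps was highest.

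The genes of PRPP supply, salvage and nucleotide kinases had 1 of 8 at 1.5-fold or more, or 12.5%, against 27.6% of all genes. Their median fold range was 1.33-fold, against 1.29-fold over all genes tested. Prps2, 1 of the 2 PRPP synthetase genes here, stood at 59.1, 52.5, 55.1, 79.7, 74.6 and 73.4 CPM, 1.52-fold, but 1.45-fold without library 2 and 1.42-fold without library 4. Prps1 ranged 1.36-fold, from 24.9 (library 2) to 33.8 CPM (library 6). Nme2 stood at 261, 284, 278, 248, 255 and 251 CPM, 1.15-fold, and its neighbour Nme1 at 43.5, 43.8, 47.9, 55.4, 53.8 and 58.4 CPM, 1.34-fold. Nme1 was lowest in library 1 and highest in library 6, while Nme2 was highest in library 2 and lowest in library 4. Of the Nme2 transcript windows, 54.5% also occur in the annotated read-through gene Gm20390, which joins the pair, so the split of reads between them is uncertain.

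The salvage genes did not share their highest library. Dck, the deoxycytidine kinase gene that starts deoxynucleoside salvage in lymphocytes, ranged 1.34-fold, from 31.3 (library 3) to 42.1 CPM (library 6). Aprt ranged 1.15-fold, from 93.4 (library 5) to 108 CPM (library 3). Cmpk1, the kinase gene for UMP and CMP, ranged 1.19-fold, from 37.4 (library 2) to 44.4 CPM (library 4), and Dctpp1, which clears modified dCTP, ranged 1.33-fold, from 12.1 (library 1) to 16.1 CPM (library 5). Aprt and Nme2 were thus highest in library 3 or 2 and the other 6 genes of the list in library 4, 5 or 6. Of all genes tested, 16.5%, 14.3% and 21.2% were highest in libraries 4, 5 and 6.

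In the methionine cycle, the entry and the return step ranged more than the middle step. Mat2a, which makes S-adenosylmethionine, the cell's methyl donor, stood at 129, 145, 146, 200.5, 194 and 185 CPM, 1.55-fold, or 1.37-fold without library 1. Mtr, the cobalamin-dependent methionine synthase gene that joins the cycle to folate, stood at 14.1, 13.1, 14.7, 19.9, 19.8 and 21.3 CPM, 1.62-fold, or 1.49-fold without library 2. Libraries 4, 5 and 6 were above the others in both. Ahcy, which breaks down the inhibitory product S-adenosylhomocysteine, stood at 164, 165, 149.7, 156, 151 and 159.6 CPM, 1.10-fold, and 77.0% of its transcript windows occur in other annotated transcripts. Mtap, which recovers methionine from the by-product of polyamine synthesis, ranged 1.26-fold, from 21.1 (library 2) to 26.5 CPM (library 5).

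Polyamine synthesis was split. Odc1, the ornithine decarboxylase gene and the classic control point of the route, stood at 354, 365, 382, 281, 279.9 and 284 CPM, 1.36-fold. Libraries 1, 2 and 3 were its highest, and the 95% intervals were 376 to 389 CPM for library 3 against 274 to 286 CPM for library 5. Srm, the spermidine synthase gene that acts on the product of Odc1, stood at 27.8, 30.4, 31.1, 43.9, 44.7 and 43.0 CPM, 1.61-fold, with libraries 4, 5 and 6 highest, or 1.45-fold without library 1. Amd1, which makes the aminopropyl donor, ranged 1.25-fold, from 46.1 (library 1) to 57.7 CPM (library 4), and Sms, the spermine synthase gene, ranged 1.17-fold, from 45.1 (library 3) to 52.8 CPM (library 6). Windows of the Amd1, Odc1 and Sms transcripts occur in transcripts of other annotated genes, such as Amd2 for Amd1 and Sms-ps for Sms, for 87.6%, 42.2% and 28.7% of their length.

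As lists, the 6 roles had their lowest level in library 1 or 2 and their highest in library 5 or 6, by unequal amounts. The folate list had levels of -0.24, -0.11, -0.14, 0.11, 0.16 and 0.31 log2 units and the pyrimidine list -0.28, -0.13, -0.16, 0.13, 0.20 and 0.26, ranges of 0.55 and 0.54. The purine list had -0.21, -0.22, -0.17, 0.18, 0.28 and 0.22, a range of 0.50, and the methionine list a range of 0.40. The PRPP, salvage and kinase list ranged by 0.30 and the polyamine list by 0.21. The polyamine list did not follow its reads, since Odc1 holds most of them: the 4 genes took 0.0456%, 0.0471%, 0.0492%, 0.0452%, 0.0451% and 0.0452% of all reads, highest in library 3, while the median of the list was highest in library 6. Differences between the lists were not tested.

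**Figure D4:**
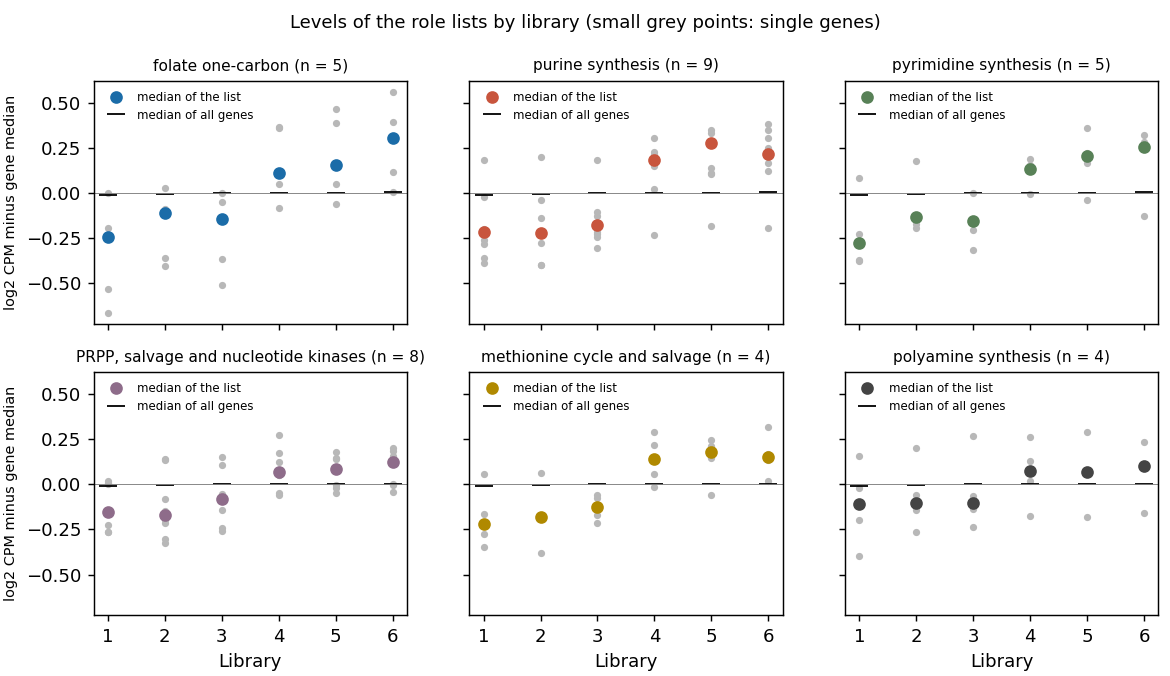
Level of each role list in the 6 libraries: large points are the median deviation of its genes in log2 CPM, small grey points the single genes, and black bars the median of all genes tested. The folate list runs from -0.24 in library 1 to 0.31 in library 6, and the polyamine list from -0.11 to 0.10, while all genes stay near the zero line.

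The share of an isozyme in its pair does not depend on how libraries are scaled, but its size, and which form prevails, depend on the gene lengths behind the FPKM. By FPKM, Impdh1 made up 40.4%, 39.9%, 37.8%, 27.7%, 29.0% and 27.5% of the summed dehydrogenase transcripts in libraries 1 to 6, and of the reads 52.5%, 51.9%, 49.8%, 38.4%, 39.9% and 38.2%. The exact 95% interval, from the reads of the pair, was 39.5% to 41.4% in library 1 and 26.7% to 28.3% in library 6. Ctps made up 41.8%, 43.3%, 44.2%, 53.0%, 53.9% and 56.3% of the CTP synthase pair and 26.1%, 27.4%, 28.1%, 35.8%, 36.5% and 38.9% of its reads. Ctps thus held fewer reads than Ctps2 in every library, and its share passes that of Ctps2 in libraries 4, 5 and 6 by FPKM only, through the length of 6268 bases behind the FPKM of Ctps2 against a longest annotated coding transcript of 3353 bases. The interval of the FPKM share was 39.5% to 44.1% in library 1 and 54.4% to 58.2% in library 6.

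Mthfd1 and Mthfd1l are the cytosolic and mitochondrial members of 1 family, and Mthfd1 made up 8.63%, 9.20%, 9.58%, 15.7%, 16.5% and 15.2% of the pair. Shmt1 made up 4.57%, 5.12%, 4.73%, 7.08%, 6.98% and 7.09% of the serine hydroxymethyltransferase pair, so the mitochondrial form prevailed in every library. Nme1 made up 12.3%, 11.5%, 12.7%, 15.9%, 15.2% and 16.5% of its pair. For these 3 pairs the lowest share was in library 1 or 2 and the highest in library 5 or 6. The 95% intervals of those libraries did not overlap. For the levels of single genes, the intervals of the highest and lowest library stood apart in 85.0% of all genes tested. Prps1 made up 67.9%, 69.9%, 72.4%, 66.2%, 68.2% and 69.3% of the PRPP synthetase pair by FPKM, lowest in library 4 and highest in library 3. Of the reads it made up 30.2%, 32.2%, 34.9%, 28.5%, 30.5% and 31.5%, so which form prevails turns over. The FPKM of Prps2 rests on a length of 9680 bases, against 3699 for its longest coding transcript in GENCODE. The FPKM span of 6.26 percentage points came down to 3.71 without library 3.

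**Figure D5:**
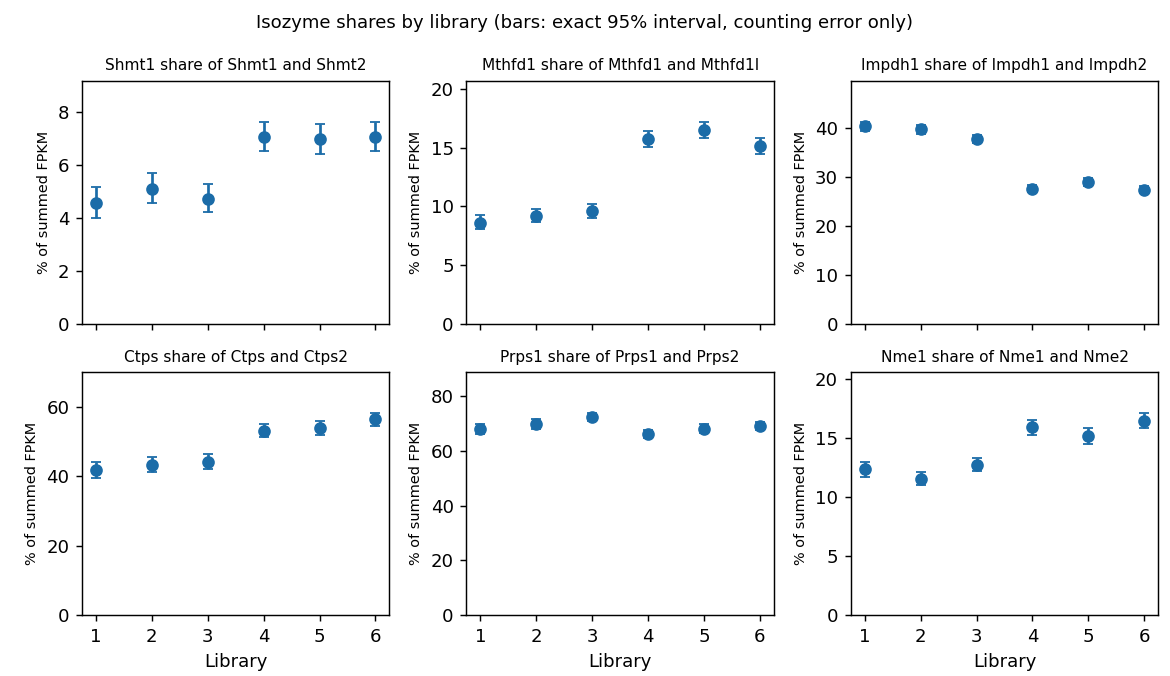
Share of the first named isozyme in the summed FPKM of its pair, in percent, for each library, with exact 95% intervals for counting error; vertical axes start at 0 and differ between panels. Impdh1 lies between 27.5% and 40.4%, highest in library 1, and Ctps between 41.8% and 56.3%, highest in library 6.

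Other genes of the same routes were looked at from a list of 107, of which 81 reached a mean of 1 CPM. Of these 81, 9 ranged 2-fold or more, or 11.1%, and 28 ranged 1.5-fold or more, or 34.6%, beside 10.5% and 27.6% of all genes. At a minimum of 5 CPM the shares of all genes were 4.69% and 17.3%. These other genes were not counted at that minimum or with a library left out. Of the 9 that ranged 2-fold or more, 4 were purine genes, or 17.4% of the 23 purine genes measured. Their means lay below 10 CPM, so they are not named. The 4 that ranged 2-fold or more at a mean of 10 CPM or above had roles in deoxynucleotides, folate and polyamines. Rrm2, the regulated subunit of ribonucleotide reductase, stood at 17.8, 19.3, 19.0, 41.0, 45.0 and 51.0 CPM, 2.85-fold, and Tk1, the thymidine kinase gene of S phase, at 7.34, 9.86, 8.29, 15.5, 17.5 and 21.3 CPM, 2.89-fold. Both are known to be switched on when cells replicate DNA, and both were lowest in library 1 and highest in library 6. Aldh1l2, which oxidises mitochondrial folate carbon to carbon dioxide, stood at 20.7, 23.5, 20.5, 43.4, 46.3 and 45.3 CPM, 2.25-fold. Smox, the spermine oxidase gene that turns spermine back into spermidine, stood at 490.4, 525, 502, 236, 235 and 232 CPM, 2.27-fold. It was highest in library 2 and lowest in library 6, and its 3 highest libraries, 1, 2 and 3, were also those of Odc1.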

How the data were processed

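Per the labels' protocols, TRIzol was used for RNA and the VAHTS Universal V5 kit for the libraries. Tools in the submitters' processing notes are HTSeq, HISAT2, fastp, DESeq2 and R 3.2.0, with GRCm39 as the build; annotation and strand setting: not given in the sources used here. Raw read counts per gene and FPKM values, with 1 column per library, were deposited by the authors. The deposited FPKM rescale the same counts by gene length and total, as checked on 10609 genes.

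Counts were scaled by TMM in edgeR 4.0.16 (R 4.3.3) and given as CPM. Fold ranges used log2 CPM with a prior count of 2, for genes whose mean reached 1 CPM, in Python 3.11.15 with pandas 2.3.3 and scipy 1.17.1. Intervals are exact Clopper-Pearson 95% intervals and cover counting error only. They may be too narrow even for that, since PCR copies are not independent molecules. As the labels give no group, libraries were neither pooled nor tested. All 35 members are named; values in every library are given for those that range 1.5-fold or more and for the member with the largest range and the most abundant member of each role list. Other pathway genes are named where they range 2-fold or more with a mean of at least 10 CPM. Members and lists were chosen with earlier results of these data known. Shared sequence was counted as 50-base windows of the longest coding transcript in GENCODE M21 (GRCm38). The fold ranges and intervals were tested on simulated counts with counting error and raised levels in chosen genes. Other variation between libraries was not simulated. Alternatives were DESeq2 1.42.0 size factors, plain totals, FPKM with a pseudocount of 0.1, the mean in place of the median of a list, a prior of 0.5, a stricter minimum (5 CPM) or no minimum, and leaving out libraries in turn.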

Additional observations from a re-analysis of the deposited data

How the results depend on the processing

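The number of members ranging 2-fold or more was 1 with DESeq2 size factors and from 1 to 2 with each library left out, and it was 2 under the other 5 settings. The number ranging 1.5-fold or more was from 7 to 12 with a library left out, 15 with plain total counts or FPKM, and 12 otherwise. With total counts or FPKM, Shmt2, Atic and Umps passed 1.5-fold. Ppat fell below it without library 1, 2, 3 or 6. The share of all genes past 2-fold and 1.5-fold was 4.69% and 17.3% at a minimum of 5 CPM, and 32.2% and 55.0% without a filter. The range of the members' level was 0.36 with DESeq2 size factors, 0.50 with total counts, 0.50 with FPKM, 0.36 with the mean of members, and from 0.32 to 0.40 with a library left out. Plain total counts moved the median of all genes by up to 0.12 log2 units between libraries, and the members' values shift by that amount; under total counts and FPKM, Mthfd1l changed the sign of its difference between library 2 and library 4. The other 34 members kept the sign of the difference between their highest and lowest library with DESeq2 size factors, total counts, FPKM and a prior count of 0.5. The spans of isozyme shares, in percentage points, moved by less than counting error when libraries were left out or reads were used in place of FPKM, but the shares themselves did not stay: by reads Prps1 and Ctps were the lesser forms in every library, and Impdh1 was the greater in libraries 1 and 2. No paired analysis was possible because the labels put no library in a group.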

Other observations

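When the 6 values of a gene are put in order, the widest gap between neighbours divides the libraries, whatever its size. For 22 of the 35 members, or 62.9%, that gap had libraries 4, 5 and 6 above it and 1, 2 and 3 below, against 16.1% of all genes tested. For 2 members, Impdh1 and Odc1, libraries 1, 2 and 3 lay above the gap, or 5.71%, against 18.7% of all genes. Among those 22 the gap took from 34.9% (Dhodh) to 77.6% (Adsl) of the gene's whole range, so the division is not equally clear in all of them. It took 84.3% of the range for Impdh1 and 70.1% for Odc1. The other 11 members had other libraries on each side, among them Mthfd2, Ctps2, Aprt, Nme2 and Ahcy. The labels do not say whether libraries on the same side of the gap belong to 1 group, and none was formed from these values. Genes of related roles do not vary independently, so the 22 are not 22 separate observations.

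Among genes known to regulate these routes, Mycn, a relative of Myc, was low and stood at 1.80, 2.57, 2.07, 0.132, 0.0287 and 0.112 CPM in libraries 1 to 6, from 56, 89, 72, 5, 1 and 4 reads. The 95% interval was 1.36 to 2.34 CPM for library 1 against 0.0428 to 0.308 CPM for library 4. Myc was lowest in library 3, at 125.6 CPM. Atf4, a stress factor known to drive serine and folate enzymes, stood at 709, 723, 707, 586, 573 and 554 CPM. It was highest in library 2 and lowest in library 6. Of the folate members, Shmt1, Shmt2 and Mthfd2 were highest in library 6, Mthfd1 in library 5 and Mthfd1l in library 2. The part of Mycn and Atf4 in these values was not tested.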
